A study of Mus musculus with 6 samples.

Results

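Genes known from red cells were read out in the somatosensory thalamus of mice 14 days after a small haemorrhage had been induced there. The 7 genes are Hba-a1, Hba-a2, Hbb-bs, Hbb-bt, Alas2, Slc4a1 and Bpgm. They were taken by name from the 26554 features of the deposited tables, by a rule that uses no measured value, although earlier results of these data were known when they were chosen. Each was found once under its Ensembl identifier. All mice were wild-type (WT) C57 animals. The 3 libraries of the collagenase group came from the ventral posterolateral and posteromedial nuclei (VPL/VPM) after a right-sided injection of 10 nL holding 0.01 U of collagenase IV, an enzyme that digests vessel basement membrane. The 3 libraries of the control group came from the same nuclei after 10 nL of saline. The sources used here give neither age nor sex nor the number of animals per library. The p-values therefore measure only how these samples vary. The protocol in the labels names no step that rinses blood from the vessels before dissection.

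Haemoglobin, the oxygen carrier of red cells, is assembled from alpha and beta globin chains that each hold a haem. Mammalian red cells lose their nucleus while they mature, and the youngest cells in the circulation still carry globin mRNA. Low amounts of globin mRNA are also known from some neurons and glia, so globin transcripts in brain tissue do not by themselves mark red cells. Alas2 encodes the aminolevulinate synthase that starts haem synthesis in erythroid cells, Slc4a1 the anion exchanger of the red cell membrane, and Bpgm the mutase that makes bisphosphoglycerate, which lowers the oxygen affinity of haemoglobin.

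Total counts per library ranged from 33603076 to 44815451. Summed levels of 8 thalamic relay neuron markers were 2586 to 3982 CPM (counts scaled to library size with TMM factors) over the 6 libraries, and Prkcd and Rora had the highest mean CPM over all 6. CPM is not scaled to transcript length, so it does not rank these genes by abundance. Libraries differed in markers of the choroid plexus, the epithelium that secretes cerebrospinal fluid. The 8 markers, with Ttr and Kl highest in CPM, summed to 35.9 CPM in saline replicate 3 and 40.3 CPM in collagenase replicate 3, against 958 to 2652 CPM in the other libraries. Fold changes of the globin genes, of Alas2 and of several list genes are also given without both of these libraries. Of the defining red cell genes, Gata1, the master regulator of the lineage, had 3 counts in collagenase replicate 3 and 0 counts elsewhere, and Klf1, the activator of adult beta globin, had 0 to 17 counts per library.

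The coding sequences of the copies are shown because they set what the counts of single globin genes can mean. Hba-a1 (ENSMUSG00000069919, chromosome 11, 32283511 to 32284465, plus strand, GRCm38 in GENCODE M21) and Hba-a2 (ENSMUSG00000069917, chromosome 11, 32296489 to 32297298, plus strand) differ at 1 of 426 coding bases, C381T. Hbb-bs (ENSMUSG00000052305, chromosome 7, 103826534 to 103828096, minus strand) and Hbb-bt (ENSMUSG00000073940, chromosome 7, 103812524 to 103813996, minus strand) differ at 1 of 441, C417T. Positions count from 1 at the first coding base, and the base of the first-named gene is given first. Bases 351 to 410 of the alpha pair and 382 to 441 of the beta pair are printed, with the differing base in capitals.
Hba-a1: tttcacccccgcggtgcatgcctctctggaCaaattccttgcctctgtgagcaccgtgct
Hba-a2: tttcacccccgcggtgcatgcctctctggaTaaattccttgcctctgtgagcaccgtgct
Hbb-bs: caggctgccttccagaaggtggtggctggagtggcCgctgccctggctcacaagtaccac
Hbb-bt: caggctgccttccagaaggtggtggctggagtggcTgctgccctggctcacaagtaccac
Of all 100-base stretches of the main Hba-a1 transcript, 56.5% also occur in that of Hba-a2, and 74.5% the other way round. For Hbb-bs and Hbb-bt the shares were 62.6% and 54.8%. How the authors assigned reads that match both copies is not given in the sources used here, so each pair is also reported as a sum.

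The promoters are shown because the profile of Alas2 over the libraries lay near that of the globin genes, by the measure given below, while Bpgm was nearly constant. RefSeq (GRCm38.p6) had an entry for 6 of the 7 genes; Slc4a1 was not matched. The 150 bases before the RefSeq start are printed on the gene's own strand. The RefSeq start lies inside the GENCODE bounds of each of the 5 genes printed, so these windows overlap those bounds wholly or in part. Capitals mark 3 motifs searched on both strands, whose matches may overlap or adjoin. They are the letters CACCC, known from globin promoters, the CAAT box with the letters CCAAT, and the TATA-box-like letters ATATAA.
Hba-a1, chr11:32283522-32283671, plus strand: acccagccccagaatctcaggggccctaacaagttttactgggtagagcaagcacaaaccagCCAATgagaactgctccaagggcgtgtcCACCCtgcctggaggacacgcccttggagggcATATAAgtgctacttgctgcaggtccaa
Hbb-bs, chr7:103827929-103828078, minus strand: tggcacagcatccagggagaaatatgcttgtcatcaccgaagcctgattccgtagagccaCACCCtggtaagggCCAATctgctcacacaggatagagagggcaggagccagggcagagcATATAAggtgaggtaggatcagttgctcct
Hbb-bt, chr7:103813924-103814073, minus strand: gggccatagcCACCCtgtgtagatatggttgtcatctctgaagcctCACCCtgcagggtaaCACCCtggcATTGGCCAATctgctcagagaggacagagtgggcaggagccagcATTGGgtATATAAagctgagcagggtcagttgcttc
Alas2, chrX:150547267-150547416, plus strand: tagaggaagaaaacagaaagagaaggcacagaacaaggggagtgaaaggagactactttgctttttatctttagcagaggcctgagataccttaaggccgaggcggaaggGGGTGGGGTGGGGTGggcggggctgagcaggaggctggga
Bpgm, chr6:34476206-34476355, plus strand: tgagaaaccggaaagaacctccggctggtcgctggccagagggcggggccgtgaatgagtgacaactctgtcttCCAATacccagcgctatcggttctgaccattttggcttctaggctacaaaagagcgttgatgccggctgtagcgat
The promoter entries of Hba-a1 and Hba-a2 were identical over the 297 bases that could be compared, so Hba-a2 is not printed. ATATAA was found in the window of the 4 globin genes and in 5.35% of all 32851 promoter windows. CACCC was found in 5 of the 6 matched genes, all but Bpgm, against 37.4% of all windows, and CCAAT in 5 of the 6, all but Alas2, against 24.5%. The letters GATAAG, a form of the site that GATA factors bind, were also searched on both strands. They were in 0 of the 6 windows and in 3.75% of all windows. Other forms of this site were not searched, so the 0 does not show that a window lacks a GATA site.

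None of the 7 genes passed the test between collagenase and saline. Of the 6 with enough counts to be tested, 0 had an adjusted p under 0.05 (edgeR quasi-likelihood test with Benjamini-Hochberg adjustment over 17240 features). That test called 2.41% of all tested features and called 2.12% as higher. At an unadjusted p under 0.05, 1 of the 6 was below the threshold, Alas2, which was higher after collagenase. Over all features 7.44% were higher and 4.60% lower at that p. DESeq2 called 0 of the 7 genes and 4.00% of the features it tested. Limma on the authors' FPKM values called 0 of the 6, with 2.26% of all features called at a pseudocount of 0.1 and 1.87% at 1. The fitted log2 fold change was positive for 5 of the 6 genes, with a median of 0.59 against -0.02 over all tested features. The size of the difference in the globin genes and Alas2 depended on collagenase replicate 3. In whole tissue, fewer cells of a type and less RNA per cell cannot be told apart.

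**Figure D1:**
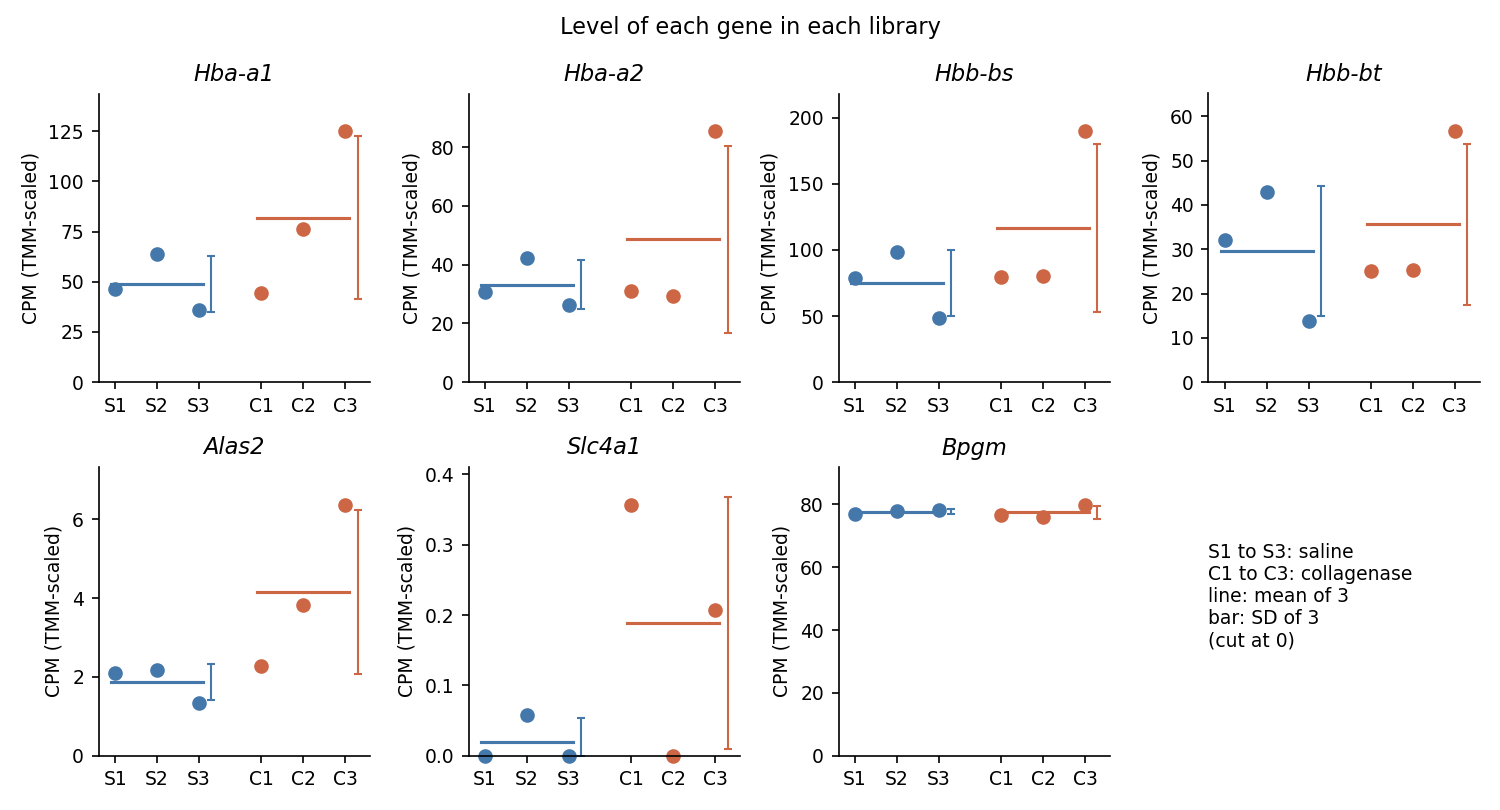
TMM-scaled CPM of each of the 7 genes (vertical axes, from 0) in the 3 saline (S1 to S3, blue) and 3 collagenase libraries (C1 to C3, orange), with the mean as a line and the SD as a bar. The 4 globin genes and Alas2 are highest in C3, where Hbb-bs reaches 190 CPM, and Bpgm lies between 76.0 and 79.9 CPM in every library. The SD bar is cut at 0.

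The alpha globin genes were highest in collagenase replicate 3. Hba-a1 measured 46.5, 63.7 and 36.0 CPM after saline and 44.5, 76.5 and 125 CPM after collagenase (replicates 1 to 3 of each group). Collagenase replicate 1 lay inside the saline range, and the groups overlapped. The log2 fold change of Hba-a1 was 0.75 (standard error, SE, 0.39; 95% interval -0.19 to 1.69; edgeR adjusted p 0.539). Hba-a2 measured 30.8, 42.4 and 26.4 CPM after saline and 31.1, 29.4 and 85.5 CPM after collagenase. For this copy collagenase replicates 1 and 2 both lay inside the saline range. Its log2 fold change was 0.55 (SE 0.45, interval -0.55 to 1.65, edgeR adjusted p 0.733). Without collagenase replicate 3 it was -0.13, and that of Hba-a1 was 0.31. Without both libraries numbered 3 it was -0.26, and that of Hba-a1 was 0.14.

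Summed, the alpha pair stood at 77.4, 106.1 and 62.4 CPM after saline and 75.6, 105.9 and 210.5 CPM after collagenase. Collagenase replicates 1 and 2 lay inside the saline range. The means were 82.0 ± 22.2 CPM after saline and 131 ± 70.8 CPM after collagenase (SD, n = 3 per group). The log2 fold change of the sum was 0.67 (SE 0.40, interval -0.28 to 1.63, edgeR adjusted p 0.596). It was 0.15 without collagenase replicate 3 and -0.011 without both libraries numbered 3, which are also those low in choroid plexus markers. The interval covers both no difference and a difference of more than 1 on the log2 scale.

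The beta globin genes showed the same high library. Hbb-bs measured 78.5, 98.1 and 48.2 CPM after saline and 79.8, 80.1 and 190 CPM after collagenase. Collagenase replicates 1 and 2 again lay inside the saline range, and saline replicate 3 was the lowest of all. The log2 fold change of Hbb-bs was 0.64 (SE 0.42, interval -0.39 to 1.66, edgeR adjusted p 0.653). Hbb-bt measured 32.2, 42.8 and 13.8 CPM after saline and 25.0, 25.2 and 56.6 CPM after collagenase, so the groups overlapped here too. Its log2 fold change was 0.27 (SE 0.50, interval -0.96 to 1.49, edgeR adjusted p 0.906). Without collagenase replicate 3 the values were 0.09 for Hbb-bs and -0.24 for Hbb-bt, and without saline replicate 3 Hbb-bt stood at -0.08. Without both libraries numbered 3, Hbb-bs was at -0.14 and Hbb-bt at -0.57 (SE 0.14, edgeR adjusted p 0.0611).

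The beta pair summed to 110.6, 140.9 and 62.0 CPM after saline and 104.8, 105.2 and 246.4 CPM after collagenase, with the same overlap. Its means were 104 ± 39.8 CPM after saline and 152 ± 81.6 CPM after collagenase. Its log2 fold change was 0.54 (SE 0.44, interval -0.53 to 1.61, edgeR adjusted p 0.732). It was 0.01 without collagenase replicate 3, 0.27 without saline replicate 3 and -0.25 without both. All 4 adult globin genes together made up 0.0112% of the counts in saline replicate 3 and 0.0458% in collagenase replicate 3, the lowest and highest of the 6 libraries.

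**Figure D2:**
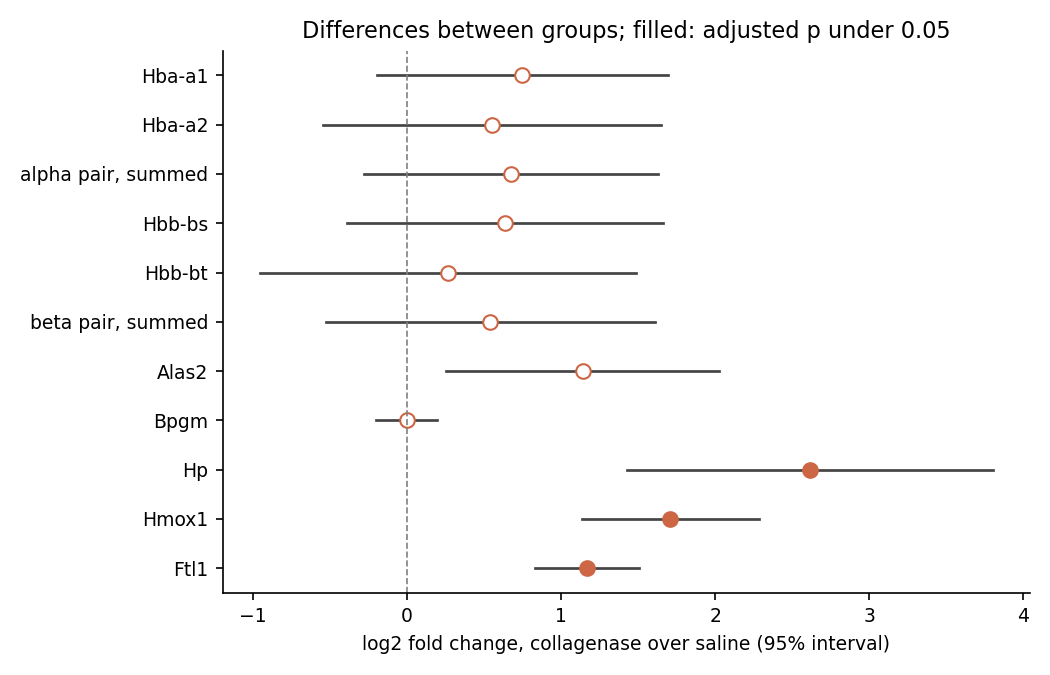
Log2 fold change of collagenase over saline (horizontal axis) with its 95% interval for the tested genes, the summed alpha and beta pairs, and 3 genes of haemoglobin and haem clearance. The intervals of the globin genes, of their sums and of Bpgm include 0 and that of Alas2 does not, but only the filled points of Hp, Hmox1 and Ftl1 passed after adjustment over all features.

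The split of counts within a pair differed between libraries. Hba-a1 took 60.2%, 60.1% and 57.7% of the alpha counts after saline and 58.9%, 72.2% and 59.4% after collagenase (replicates 1 to 3 of each group). The 95% interval in collagenase replicate 2 was 70.8% to 73.6% (exact Clopper-Pearson, counting error only), above the intervals of the other 5 libraries, which lay between 55.5% and 61.8%. Hbb-bs took 70.9%, 69.6% and 77.7% of the beta counts after saline and 76.1%, 76.1% and 77.0% after collagenase. Saline replicate 3 therefore lay with the collagenase libraries for the beta pair. The groups overlapped in both shares, and the part of reads that match both copies in these splits was not tested.

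Levels per transcript length were compared on the deposited FPKM scale (fragments per kilobase of transcript, scaled to library size). Hbb-bs was the most abundant of the 7 genes, at 111 ± 42.4 FPKM in saline and 180 ± 93.9 FPKM in collagenase libraries. Hba-a1 (64.6 ± 21.7 and 114 ± 53.4 FPKM), Hba-a2 (55.4 ± 16.4 and 85.2 ± 53.9 FPKM) and Hbb-bt (39.3 ± 21.0 and 49.2 ± 24.0 FPKM) followed. The mean ± SD ranges of neighbours in this order overlapped in both groups, but the order held within each of the 6 libraries. Bpgm followed, below Hbb-bt in 5 of the 6 libraries, at 32.1 ± 1.78 and 34.2 ± 1.20 FPKM, Alas2 at 0.846 ± 0.253 and 1.97 ± 0.953 FPKM, and Slc4a1 was lowest at 0.00342 ± 0.00592 and 0.0395 ± 0.0380 FPKM. The ratio of the alpha to the beta sum was 0.716, 0.772 and 1.03 after saline and 0.736, 0.995 and 0.871 after collagenase (replicates 1 to 3 of each group), with overlap between groups.

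**Figure D3:**
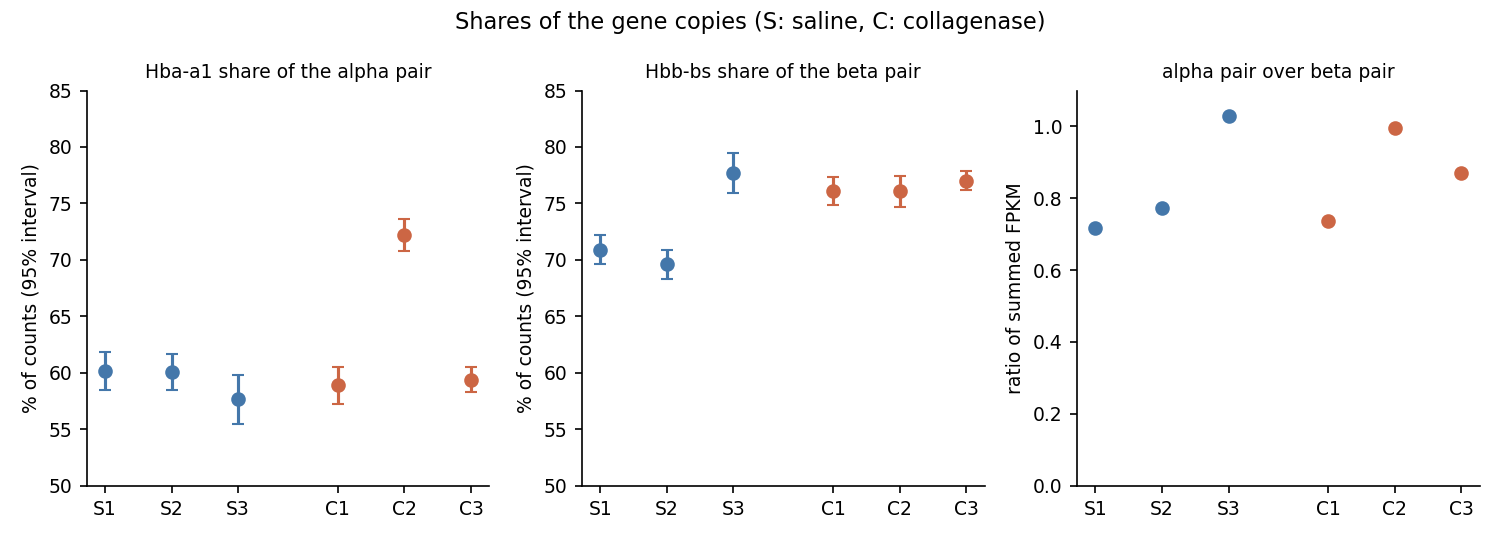
Share of Hba-a1 in the alpha counts and of Hbb-bs in the beta counts (percent, axes from 50, with 95% counting intervals), and the ratio of alpha to beta FPKM (axis from 0), in saline (S) and collagenase (C) libraries. C2 stands apart in the alpha share at 72.2%, and S1 and S2 have the lowest beta shares, 70.9% and 69.6%.

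Alas2 (ENSMUSG00000025270, chromosome X, 150547375 to 150570638, plus strand), the enzyme that commits erythroid cells to haem synthesis, had the largest fold change of the tested genes. It measured 2.10, 2.18 and 1.35 CPM after saline and 2.27, 3.82 and 6.37 CPM after collagenase (replicates 1 to 3 of each group). The groups did not overlap, which held for 1 of the 6 tested genes and for 10.1% of all tested features in the same direction, but collagenase replicate 1 lay only just above the saline range. The log2 fold change was 1.14 (SE 0.39, interval 0.26 to 2.03), with an unadjusted p of 0.0175 and an edgeR adjusted p of 0.252. It did not pass in any alternative, with adjusted p-values from 0.0958 in DESeq2 to 0.592 without collagenase replicate 3. Without that library the log2 fold change was 0.69, and without both libraries numbered 3 it was 0.51. Relative to the 4 globin genes, Alas2 had 11.1, 8.83 and 10.8 counts per 1000 globin counts in saline, and 12.6, 18.1 and 14.0 in collagenase libraries. In this ratio collagenase replicate 2, and not replicate 3, was the highest.

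Slc4a1 (ENSMUSG00000006574, chromosome 11, 102348824 to 102366203, minus strand), the anion exchanger, was near the detection limit. It had 0, 2 and 0 counts after saline and 17, 0 and 8 counts after collagenase (replicates 1 to 3 of each group), below the filter on low counts. The pooled ratio of collagenase to saline was 11.4 with an exact 95% interval of 2.85 to 99.6, which covers counting error only. It was 5.96 (1.19 to 57.6) without collagenase replicate 1. Collagenase replicate 2 had 0 counts, so the groups overlapped. In edgeR without the filter the log2 fold change was 3.17 (SE 1.62, adjusted p 0.565), and in DESeq2 it was 3.34 (SE 2.03, adjusted p 0.602). The intervals take each count as independent, but fewer features held 1 count (145 to 187 per library) than 2 counts (570 to 653).

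Bpgm (ENSMUSG00000038871, chromosome 6, 34476207 to 34505613, plus strand), the bisphosphoglycerate mutase, was nearly constant. It measured 76.8, 77.9 and 78.3 CPM after saline and 76.7, 76.0 and 79.9 CPM after collagenase. The summed adult globin genes ran from 124 to 457 CPM over the same libraries. Which cells carried the Bpgm transcripts was not tested. With TMM factors the log2 fold change of Bpgm was -0.0024 (SE 0.09, interval -0.20 to 0.19, edgeR adjusted p 0.996). At this scaling the interval leaves room for a difference of at most 0.20 in either direction. The sign for Bpgm changed with the scaling, to 0.076 (SE 0.10) with library totals and 0.092 (SE 0.10) on FPKM with a pseudocount of 0.1. The limit of 0.20 therefore holds for TMM factors only. Of the 15 tested genes of glycolysis, the pathway from which Bpgm branches, 0 passed in edgeR, DESeq2 or limma with all 6 libraries and 0 had an unadjusted p under 0.05. Their median log2 fold change was -0.11. Those with the smallest p were Pgk1, phosphoglycerate kinase (log2 fold change -0.28, SE 0.18), Pgam1, the main phosphoglycerate mutase (-0.17, SE 0.12), and Eno2, the neuronal enolase (-0.14, SE 0.10). Without saline replicate 3, Pgk1 passed (log2 fold change -0.47, edgeR adjusted p 0.0373), and without both libraries numbered 3 it missed (-0.44, edgeR adjusted p 0.0623). The fit without saline replicate 3 called 414 of 17594 features as lower, against 50 of 17240 with all libraries.

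**Figure D4:**
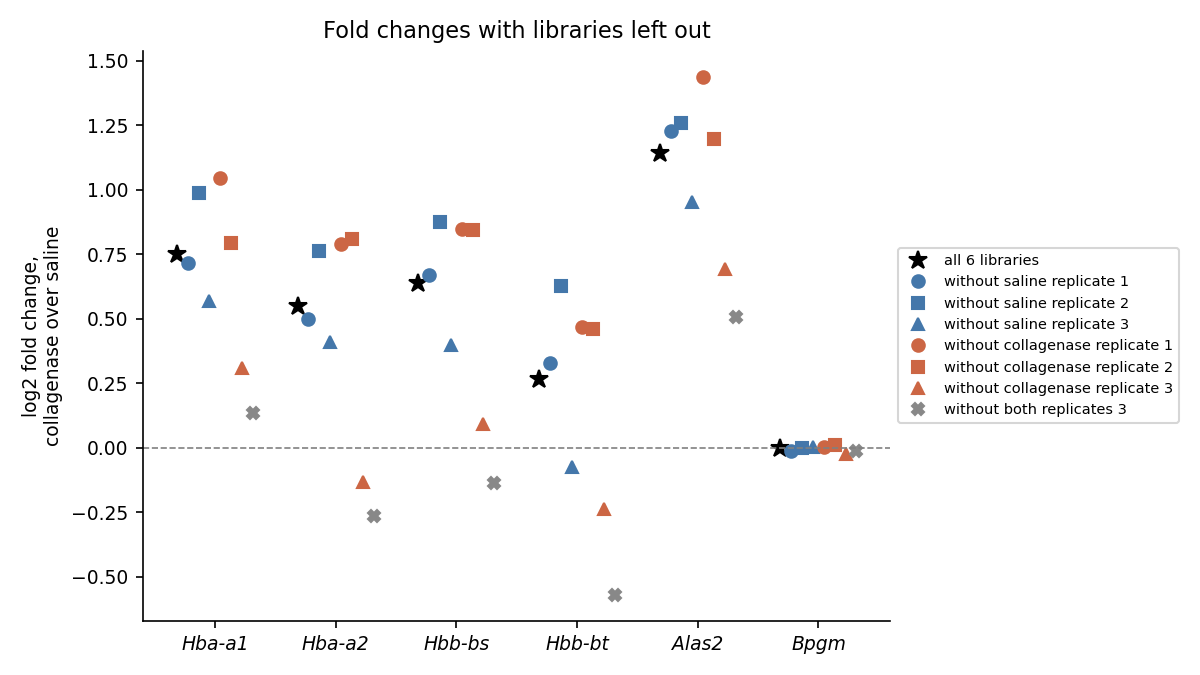
Log2 fold change of collagenase over saline (vertical axis) for the 6 tested genes with all 6 libraries (star), without each library in turn, and without both replicates 3 (grey cross). Among single libraries left out, the globin genes and Alas2 are lowest without collagenase replicate 3 (orange triangle), where Hba-a2 and Hbb-bt are at -0.13 and -0.24, while Alas2 stays positive at 0.69.

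The profile of Alas2 over the libraries lay near that of the globin genes, while Bpgm was nearly constant. Likeness was measured as the mean absolute difference of log2 CPM from the summed globins over 6 libraries, after each gene was centred at its own mean. It was 0.07 for Hbb-bs, 0.14 for Hba-a2, 0.15 for Hba-a1 and 0.22 for Hbb-bt, which are parts of the sum, and 0.25 for Alas2. For Bpgm it was 0.41, and the median over all tested features was 0.47. A constant gene takes a value set by the spread of the globins themselves. The value of Bpgm therefore reflects its constancy and does not measure likeness. Of all tested features, 0.435% lay nearer to the globins than Alas2 and 23.8% nearer than Bpgm. The 5 other annotated genes with the nearest profiles were Irs4, an insulin receptor substrate (0.11), Tead4, a transcription factor of the Hippo pathway (0.15), Gpr182, a receptor of endothelial cells (0.16), Gm9803 (0.16) and Ptgds, a prostaglandin D synthase of the meninges and choroid plexus (0.18). Ptgds measured 436, 716 and 433 CPM after saline and 579, 825 and 1408 CPM after collagenase.

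Other genes of the erythroid programme gave few differences. In the globin family list, 13 of 15 genes were in the files and 7 were tested, and 0 passed in edgeR, DESeq2 or limma. The embryonic genes Hba-x and Hbb-bh1 had 0 counts in all 6 libraries, as did Hbb-bh2, and Hbb-y had 0 to 4. Of the globins that neurons and fibroblast-like cells make, Cygb, cytoglobin, measured 54.1 ± 9.53 CPM after saline and 69.7 ± 8.68 CPM after collagenase (log2 fold change 0.36, SE 0.15) and had the only unadjusted p under 0.05 of the list. Ngb, neuroglobin, had a log2 fold change of 0.61 (SE 0.43). The log2 fold change was positive for all 7 tested, 4 of them the adult globin genes, with a median of 0.55 against -0.02 over all features.

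Haem synthesis genes did not pass either. Of 9 tested enzymes of the pathway, Alas2 included, 0 passed in edgeR, DESeq2 or limma and 2 had an unadjusted p under 0.05. The median log2 fold change was -0.09. Alas1, the synthase of non-erythroid cells, measured 13.5 ± 0.978 FPKM after saline and 13.5 ± 1.02 FPKM after collagenase, above Alas2 on this scale in each library. Uros, uroporphyrinogen synthase, stood at a log2 fold change of -0.30 (SE 0.12), and Cpox, coproporphyrinogen oxidase, of -0.25 (SE 0.12). Of 11 genes that supply iron and intermediates for haem synthesis 0 passed in these tools, with 1 unadjusted p under 0.05 and a median log2 fold change of -0.06. That gene was Tfrc, the transferrin receptor (log2 fold change -0.47, SE 0.19), and Steap3, a ferrireductase, and Flvcr1, a haem exporter, came next in p (0.37, SE 0.18 and 0.29, SE 0.15). Without saline replicate 3, Tfrc passed at -0.67 (edgeR adjusted p 0.0151), as did Tmem14c, a carrier of porphyrin intermediates, at -0.62 (edgeR adjusted p 0.021). Both also passed without both libraries numbered 3 (-0.63 and -0.60, edgeR adjusted p 0.0236 and 0.0293). These 2 fits called 917 of 17594 features (414 lower) and 1034 of 17432 (426 lower). With all libraries 416 of 17240 were called, 50 of them lower. With all libraries Tmem14c stood at -0.31 (SE 0.30).

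Of 12 tested genes of the red cell membrane and its skeleton 0 passed in edgeR or limma, 2 had an unadjusted p under 0.05 and 1 passed in DESeq2. The median log2 fold change was 0.16. Gypc, a glycophorin, was the gene that DESeq2 called. It measured 1.58 ± 0.474 CPM after saline and 3.42 ± 0.391 CPM after collagenase (log2 fold change 1.11, SE 0.27, edgeR adjusted p 0.0907), and it also passed in edgeR without saline replicate 2 (1.37, adjusted p 0.0455). Sptb, beta spectrin, differed by a log2 fold change of 0.25 (SE 0.09), and Rhd, a blood group antigen gene, of 1.07 (SE 0.85) at under 0.5 CPM. Brain cells also express Sptb, Ank1 and other skeleton genes of this list. The remaining 6 of 18 genes, among them Epb42, were too low to be tested. Epb42, a binding protein of the anion exchanger, had 0, 0 and 8 counts after saline and 14, 4 and 18 counts after collagenase.

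Of 7 tested red cell enzymes, Bpgm included, 0 passed in edgeR, DESeq2 or limma and 1 had an unadjusted p under 0.05, with a median log2 fold change of -0.03. Blvrb, biliverdin reductase B, had a log2 fold change of 0.44 (SE 0.19), Prdx2, a peroxiredoxin abundant in red cells, of -0.25 (SE 0.11), and Car2, a carbonic anhydrase also made by oligodendrocytes, of -0.09 (SE 0.11). Prdx2 passed without both libraries numbered 3 (-0.39, edgeR adjusted p 0.0412), a fit that called 426 of 17432 features as lower. Of 7 tested erythroid regulators 0 passed in these tools and 2 had an unadjusted p under 0.05, also with a median of -0.03. Lmo2, a bridging factor also expressed in endothelium, had a log2 fold change of 0.36 (SE 0.12), Bcl11a, a repressor of embryonic globins that neurons also express, of -0.39 (SE 0.15), and Tal1, a partner of Lmo2, of 1.07 (SE 0.68). Klf1 had 9, 7 and 0 counts after saline and 17, 9 and 14 after collagenase and was not tested.

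Of 12 tested genes that bind and break down free haemoglobin and haem or store its iron, 3 rose, and the other 9 missed the threshold. Their median log2 fold change was 0.24, and whether these genes differed from the globin genes was not tested. DESeq2 called 4 of the 12, and limma 3 with a pseudocount of 0.1 and 2 with 1. The other gene that DESeq2 called was Lrp1, a receptor for haem bound to haemopexin, which also passed in edgeR without both libraries numbered 3 (0.42, adjusted p 0.0395). Ftl1, the ferritin light chain that stores iron, measured 171 ± 29.8 CPM after saline and rose to 384 ± 39.4 CPM after collagenase (log2 fold change 1.17, SE 0.15, edgeR adjusted p 0.00801). Hmox1, the inducible haem oxygenase, measured 4.03 ± 1.24 CPM after saline and rose to 13.2 ± 2.69 CPM (log2 fold change 1.71, SE 0.25, edgeR adjusted p 0.0145), and Hp, haptoglobin, from 0.316 ± 0.172 to 1.91 ± 0.922 CPM (log2 fold change 2.62, SE 0.52, edgeR adjusted p 0.0416). With 1 library left out, Ftl1 passed in 5 of 6 fits and missed without saline replicate 1 (edgeR adjusted p 0.0633). Hmox1 missed without saline replicate 1, collagenase replicate 1 or collagenase replicate 2 (0.092, 0.0564 and 0.0615, edgeR adjusted p). Among these 6 fits Hp passed only without saline replicate 3, and its edgeR adjusted p in the other 5 fits was 0.0661 to 0.178. With the replicate number as a block it was 0.122, and limma with a pseudocount of 1 gave an adjusted p of 0.0643. Without both libraries numbered 3, Ftl1, Hmox1 and Hp passed (log2 fold change 1.08, 2.15 and 3.39, edgeR adjusted p 0.00578, 0.00092 and 0.0108). That fit called 1034 of 17432 features, against 416 of 17240 with all libraries. In collagenase replicate 3, where the globin genes were highest, Hmox1 was lowest of its group at 10.1 CPM, against 15.3 and 14.1 CPM in replicates 1 and 2. Hp was lowest there too, at 2.92, 1.69 and 1.11 CPM in collagenase replicates 1 to 3, while Ftl1, at 428, 355 and 368 CPM, was lowest in replicate 2. Some markers of microglia and astrocytes were also higher by the same test. These were 4 of 8 microglia markers (Csf1r, Cx3cr1 and Aif1 among them) and 2 of 8 astrocyte markers (Gfap and Aqp4). The others did not pass, and the part of these cells in the result was not tested.

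Markers of other blood and vessel cells were read beside the globin genes. The 8 platelet markers summed to 4.39, 8.29 and 3.78 CPM after saline and 4.85, 3.76 and 6.48 CPM after collagenase, with Itga2b and Gp1bb highest in mean CPM. Of the 6 tested 0 passed in edgeR or limma with all 6 libraries, 1 had an unadjusted p under 0.05 and 1 passed in DESeq2. In both cases this was Gp1bb, which was lower after collagenase (log2 fold change -1.91, SE 0.56). Gp1bb also passed in edgeR without both libraries numbered 3 (-2.75, adjusted p 0.0362), a fit that called 1034 of 17432 features, 426 of them lower. Gp1bb measured 1.35, 3.58 and 1.70 CPM after saline and 0.273, 0.457 and 1.04 CPM after collagenase, and so weighs on the sum. Pf4, Ppbp, Itga2b and Gp1ba, like the globin genes, were lowest after saline in replicate 3 and highest after collagenase in replicate 3. Gp1bb, Gp9, Gp6 and Treml1 did not show both. The 10 neutrophil markers summed to 0.721, 0.495 and 0.381 CPM after saline and 1.89, 0.833 and 3.29 CPM after collagenase. They were highest in collagenase replicate 3, the library with the highest globin levels. Of these, S100a9 and S100a8 were tested. In edgeR, DESeq2 and limma 0 of these 2 passed, and 1, S100a9, had an unadjusted p under 0.05. Elane and Camp had 0 counts in all libraries. The 10 endothelial markers, with Slco1a4 and Flt1 highest in mean CPM, summed to between 356 and 403 CPM in all 6 libraries. This was a narrower relative range than that of the summed globin genes, but single markers ran in different directions. Cldn5 measured 57.3, 59.1 and 26.7 CPM after saline and 42.4, 34.7 and 43.6 CPM after collagenase. Flt1 measured 66.2, 67.8 and 73.2 CPM after saline and 78.0, 82.4 and 75.4 CPM after collagenase. Of the 10, 0 passed in edgeR or limma with all 6 libraries, 1 had an unadjusted p under 0.05 and 1 passed in DESeq2. Both times this was Ly6c1, which was lower after collagenase (log2 fold change -0.59, SE 0.17). Ly6c1 also passed in edgeR without both libraries numbered 3 (-0.73, adjusted p 0.0102). Of 8 phagocyte markers 8 rose in edgeR, DESeq2 and limma. Their summed levels, with Lyz2 and Gpnmb highest in mean CPM, were 23.3 to 27.9 CPM after saline and 852, 556 and 400 CPM in collagenase replicates 1, 2 and 3, and so lowest of that group where the globin genes were highest. The part of any of these cell types in the globin levels was not tested.

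**Figure D5:**
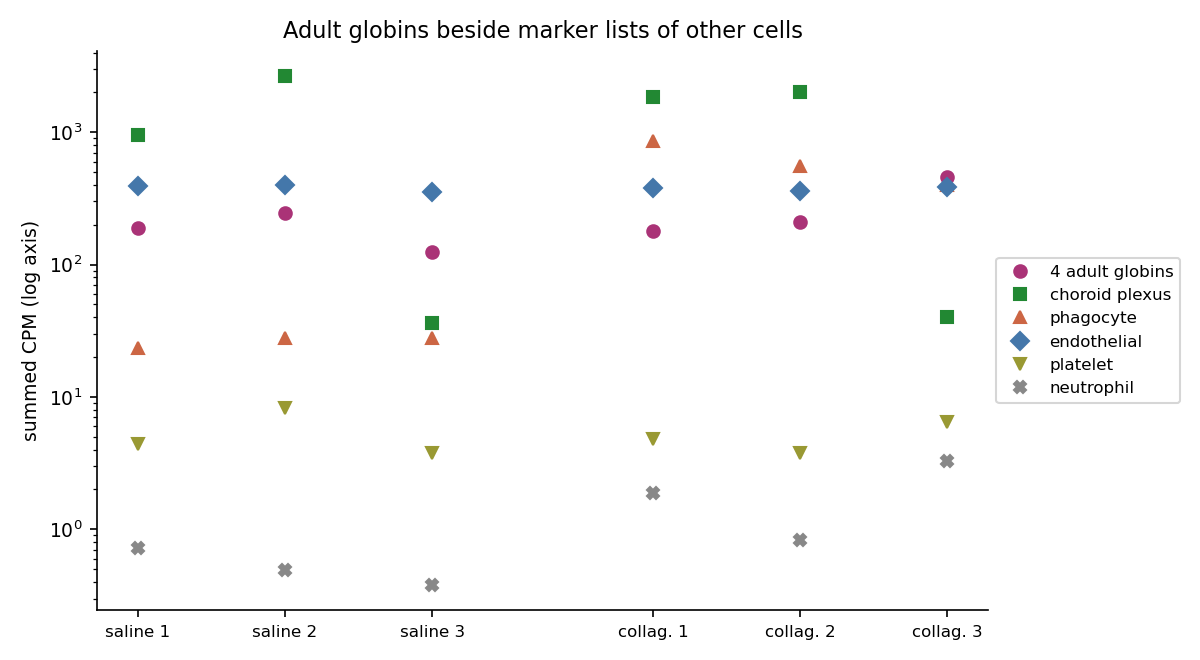
Summed CPM (log axis) of the 4 adult globin genes and of marker lists of other cells in each saline and collagenase library. The globin sum is highest in collagenase replicate 3 at 457 CPM and lowest in saline replicate 3 at 124 CPM, the libraries whose choroid plexus markers are at 40.3 and 35.9 CPM. The sum of the endothelial markers lies between 356 and 403 CPM, although single endothelial markers ran in different directions.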

How the data were processed

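Each library has its own deposited table, which holds per the file headers the authors' raw count and FPKM for every feature. Per the submitters' processing notes FastQC, HISAT2 2.2.1, StringTie, DESeq2 and GRCm38 were used, without roles; the annotation release, strand setting and treatment of multi-mapping reads were not given in the sources used here. Lines of spilled annotation text (10 to 30 per library) were skipped. The deposited counts were tested with edgeR 4.0.16 (R 4.3.3): filterByExpr, TMM factors (0.898 to 1.063), robust quasi-likelihood F-test, two-sided, Benjamini-Hochberg adjustment over 17240 features, threshold 0.05. A mean ± SD covers 3 libraries. DESeq2 1.42.0 on the counts and limma 3.58.1 on log2 of the deposited FPKM values plus 0.1 or 1 were alternatives, beside other scalings, no filter, a replicate block, each library left out and, chosen after seeing the data, both libraries numbered 3 left out. The fit was tested on simulated data. Members, lists and markers were chosen with earlier results of these data known. Named list genes are those that passed or, with fewer than 3, the smallest p-values; others were chosen after their values were seen. Hbb-bh0 and Ahsp were not analysed here. Some listed genes are not reported here.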

Additional observations from a re-analysis of the deposited data

How the results depend on the processing

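None of the members passed under any of the alternatives run, and the count stayed at 0 in each. The number of all tested genes that passed, 416, was 788 in DESeq2 and ranged from 85 to 1034 when libraries were left out, and the number of genes from the erythroid, haem and globin lists, 3, was 5 in DESeq2 and ranged from 0 to 7. Log2 fold changes over fits with libraries left out ranged from -0.26 to 0.81 for Hba-a2, -0.14 to 0.88 for Hbb-bs, -0.57 to 0.63 for Hbb-bt, -0.023 to 0.010 for Bpgm, -0.011 to 0.95 for the alpha sum and -0.25 to 0.81 for the beta sum. Each lowest value of the globin genes came without both libraries numbered 3. Hba-a1 (0.14 to 1.05) and Alas2 (0.51 to 1.44) stayed positive. Bpgm, -0.0024 with TMM factors, was 0.076 with library totals and 0.092 and 0.0895 on FPKM with pseudocounts of 0.1 and 1. The cause was not tested, but these fits hold fewer samples or another scaling.

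With the replicate number as a block, 302 genes passed, and 0 of the members. Same-numbered libraries correlated in their deviations from the group means at 0.044, 0.107 and 0.203 over genes, and saline replicate 1 did not correlate best with its own number, so the numbers were not taken to pair the samples. Replicates 2 and 3 did correlate best with their own number, and both replicates 3 were low in choroid plexus markers. Slc4a1 and 5 of 12 erythroid regulators lay below the count filter, and Slc4a1 also varied between collagenase libraries (17, 0 and 8 counts). Each globin gene had 471 counts or more in every library, and its level varied between libraries. The parts of depth and of this spread in the interval widths were not tested.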
